A study of Mus musculus with 50 samples.

Results

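Of the 55385 genes in the deposited expression tables, 10 were selected by symbol as markers of motor neuron subtypes or of the alpha class. They were *Chodl*, *Mmp9*, *Calca*, *Calcb*, *Spp1*, *Thy1*, *Sv2a*, *Sv2b*, *Sv2c* and *Wnt7a*, and each symbol matched 1 row in every RNA-seq library. They were followed in mouse spinal motor neurons from embryo to old age and in motor neurons derived from embryonic stem cells. RNA-seq covered 28 libraries and ATAC-seq, which maps accessible chromatin, covered 22. RNA groups held 2 libraries at E13.5, P13, 2yr, DIV0 and DIV7 and 3 libraries otherwise, and all ATAC groups held 2.

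The E10.5 embryos were C57BL/6- HB9-GFP, in which the HB9 promoter drives GFP in motor neurons, and whole GFP-positive cells were sorted. All other groups carried C57BL/6- Chat-Cre;SUN1-GFP-3xMYC, which tags the nuclear envelope of cholinergic cells, and nuclei were isolated at E13.5, P4, P13, P21, P56 and 2yr. Chat-Cre also tags visceral motor neurons and cholinergic interneurons. Animals of both sexes were pooled within a library. Nuclei for RNA came from brachial and lumbar cord and those for ATAC-seq from thoracic cord as well. The cultured neurons came from 1 stem cell line of the same genotype and were profiled before co-culture (DIV0) and after 7 and 28 days on mouse cortical astrocytes (DIV7 and DIV28), the co-cultures with added neurotrophic factors. A further DIV28 group was kept for all 28 days in 1 uM tetrodotoxin (TTX), a sodium channel blocker that silences action potentials, so the untreated DIV28 cultures were its control.

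Alpha motor neurons innervate force-generating muscle fibers and gamma motor neurons innervate the fibers of the muscle spindle, and alpha motor neurons are further divided by the fast or slow fibers they contact. *Chodl*, encoding the membrane protein chondrolectin, and *Mmp9*, encoding a secreted matrix protease, are known for fast alpha motor neurons, and *Calca* and *Calcb* encode the CGRP neuropeptides that many alpha motor neurons carry. *Spp1* encodes osteopontin, a secreted phosphoprotein used to label alpha motor neurons, and *Thy1* encodes a surface glycoprotein of mature neurons. The SV2 proteins are synaptic vesicle membrane glycoproteins, of which SV2A has been used to mark slow motor terminals. *Wnt7a* encodes a secreted WNT ligand that is known as a marker of gamma motor neurons in late embryos.

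Totals ranged from 2704682 to 21823500 expected counts per RNA library, with a median of 4292675. Motor neuron identity genes had counts in every group, with a summed level of 112.6 TPM (transcript abundance per library, corrected for gene length) or more in each library. By the test described below, 4 of these 7 genes fell and 1 rose from DIV0 to DIV28 (median log2 change -2.13). Over all genes, 11.7% fell and 17.1% rose there. From P21 to DIV28, 1 of the 7 fell and 1 rose (median -0.07), where 13.1% of all genes fell and 13.3% rose. The library titled DIV0 replicate 3 was used as DIV28 replicate 3, since its deposited table carries a DIV28 name. Over genes with a mean of at least 50 normalised counts in at least 1 group, its log2 levels correlated at 0.934 with the other DIV28 libraries. The values were 0.894 to 0.957 with the TTX libraries and 0.713 to 0.717 with the DIV0 libraries. Each marker gene result that depended on this library is given with the library under its title as well. Summed levels of 5 endothelial markers were 433.6 to 813.8 TPM at E13.5, 115.9 to 255.8 TPM at P4 and at most 15.3 TPM in the other groups, where *Cldn5* was at 0 in all cultures and *Cdh5* at 0 at E10.5 and DIV0. The labels do not say that all replicates were separate litters or cultures, so the p-values below measure the spread between these libraries.

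Levels are given as normalised counts, which are expected counts divided by a size factor per library. A gene was called changed when edgeR's quasi-likelihood test, fitted across all genes, gave p below 0.001 before adjustment together with a 2-fold or larger change, the limits of the study. Printed p-values are adjusted by Benjamini-Hochberg over all tested genes, so a low adjusted p can stand beside a change that was not called. In bulk RNA, fewer cells of a subtype and less RNA per cell cannot be told apart for any of these genes.

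**Figure D1:**
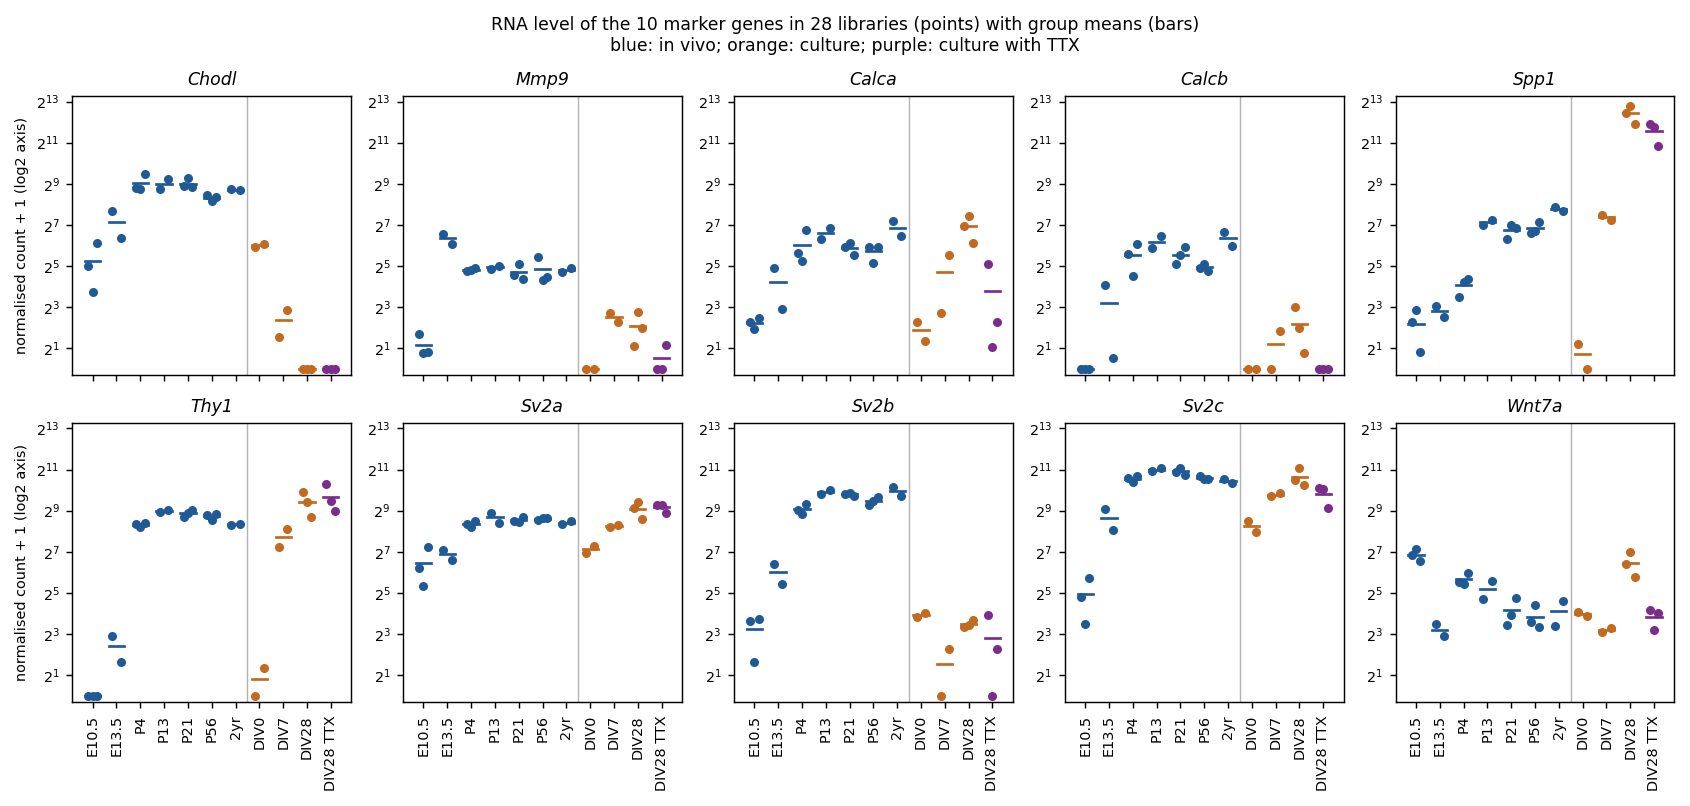
Normalised counts (plus 1, log2 axis) of the 10 marker genes in each of 28 RNA libraries (points) with group means (bars), in vivo in blue, culture in orange and culture with TTX in purple. *Chodl* and *Sv2b* were high in vivo from P4 onward and low or absent at DIV28, whereas *Spp1* reached its highest levels at DIV28.

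The first wave of change lay between E10.5 and P4. From E10.5 to E13.5, 5 of the 10 genes were called, 4 of them higher, where 44.1% of all 15030 tested genes were called, 24.6% higher and 19.4% lower. From E13.5 to P4, 8 were called, 7 of them higher, against 42.7% of all genes, 23.8% higher and 19.0% lower. Without E13.5 replicate 2 the 2 counts of called markers were 8 and 4. The median log2 change of the 10 genes was 2.28 at the first step, or 2.07 with *Calcb* and *Thy1* at the bound their counts of 0 allow, and 2.14 at the second, where the medians of all tested genes were 0.13 and 0.12. The first step also compared whole cells of one strain with nuclei of another, and those differences cannot be told apart from age.

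Later steps called few of them. From P4 to P13 and from P4 to P21, *Spp1* was the single gene called, where 13.3% and 17.0% of all genes were called and 5.80% and 5.85% rose. Without P21 replicate 3, 2 were called from P4 to P21, the second being *Wnt7a*. The P4 to P21 median of the 10 genes was 0.12, and that of all genes was -0.01. From P13 to P21 none was called by edgeR or by DESeq2, with 1 gene under an unadjusted p of 0.05, and 7.30% of all genes were called. From P21 to P56 none was called by either tool or under an unadjusted p of 0.05, and 0.173% of all genes were called, 0.0466% higher. From P56 to 2yr none was called by either tool, with 3 genes under an unadjusted p of 0.05, and 0.685% of all genes were called.

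In the culture fit, 7 of the 10 genes passed the filter on low counts, and *Mmp9*, *Calcb* and *Sv2b* did not. From DIV0 to DIV7, 2 of the 7 tested marker genes were called, *Spp1* and *Thy1*, where 11.2% of all 12890 tested genes were called and 8.36% rose. From DIV7 to DIV28, 2 were called, *Spp1* and *Wnt7a*, where 7.70% were called and 3.62% rose. Without either DIV7 replicate, *Spp1* was the single marker called at the second step.

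*Chodl* lies at chr16:78930948-78951733 on the plus strand (GRCm38, mm10). Its normalised counts were 30.5, 12.4 and 69.4 at E10.5, 200.4 and 80.2 at E13.5, and 442.0, 434.5 and 718.6 at P4. The P4 libraries were all above the E13.5 libraries, and both E13.5 libraries were above all 3 at E10.5. The first step had a log2 change of 1.72 ± 0.45 (SE, adjusted p = 0.0026) and was not called, and from E13.5 to P4 *Chodl* rose by 2.11 ± 0.44 (adjusted p = 0.00041). Without E13.5 replicate 2, the second change was 1.57 with adjusted p = 0.013 and was not called, while the first was 2.26 with adjusted p = 0.00051 and was called. At later ages it held between 285.3 and 615.8 in all 10 libraries, with its lowest group mean at P56 (320.2 ± 32.9, SD, n = 3).

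In culture the order was opposite. *Chodl* had 60.1 and 65.7 normalised counts at DIV0, 1.9 and 6.4 at DIV7, and no count in any of the 3 DIV28 and 3 TTX libraries. Against a floor of 3 counts over the DIV28 group, it was at least 111-fold lower at DIV28 than at DIV0 and at least 915-fold lower than at P21, both called (adjusted p = 5.6e-07 and 6.3e-10). The floor, like every interval of counts below, covers counting error only. The deepest library of the series, DIV28 replicate 2, was among those without a count.

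Its promoter did not follow the RNA. An ATAC peak overlapped the 1000 bases either side of the *Chodl* start in all 22 libraries. Its fold enrichment, the height at the summit over the background within the same library, was 9.92 and 10.48 at P21, 8.99 and 10.1 at DIV0, 9.99 and 9.82 at DIV28 and 9.87 and 6.34 with TTX. The DIV28 peaks thus lay within the range of the in vivo libraries, 4.92 to 14.9, while the DIV28 RNA libraries had no count. The promoter is printed because it was accessible in these libraries. The sequence is the 250 bases before the RefSeq start (GRCm38.p6, chr16:78930698-78930947, plus strand), in lower case throughout because none of the 5 longer motifs searched matched it.
Chodl promoter: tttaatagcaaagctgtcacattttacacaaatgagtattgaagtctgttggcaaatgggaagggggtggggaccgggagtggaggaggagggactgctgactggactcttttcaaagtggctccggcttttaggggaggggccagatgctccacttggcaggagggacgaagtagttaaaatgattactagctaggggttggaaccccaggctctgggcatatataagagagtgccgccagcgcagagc

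*Mmp9* (chr2:164940780-164955850, plus strand) was highest at E13.5. It had 2.3, 0.7 and 0.8 normalised counts at E10.5, 94.2 and 66.1 at E13.5, and 25.8, 27.3 and 28.7 at P4. The groups did not overlap at either step. It rose by 5.74 ± 0.47 on the log2 scale (adjusted p = 1.2e-08) and then fell by 1.39 ± 0.34 (adjusted p = 0.0014).

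The fall of *Mmp9* depended on single libraries, since without E13.5 replicate 1 it was -1.12 (adjusted p = 0.018), and it was not called either without P4 replicate 1 (-1.36, adjusted p = 0.0056), replicate 2 (-1.39, adjusted p = 0.0055) or replicate 3 (-1.43, adjusted p = 0.0042). The summed level of the 5 endothelial markers fell over the same step, as given above, with all 5 detected at both ages, and 6 fibroblast and pericyte markers held 84.6 to 105.2 TPM at E13.5 and 57.7 to 152.8 TPM at P4. Their part in the *Mmp9* level was not tested. From P4 onward its libraries lay between 18.8 and 42.6 normalised counts.

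Few *Mmp9* counts came from the cultures. It had no count at DIV0, 5.6 and 3.8 normalised counts at DIV7, and 1.2, 5.8 and 2.9 at DIV28, below every P21 library (22.4, 33.7 and 19.3). The log2 change from P21 to DIV28 was -2.60 ± 0.46 (adjusted p = 8.8e-05), a called fall. With TTX it had 0, 0 and 1.3 normalised counts, which overlapped with DIV28, where 18 of the 23 counts came from replicate 2, the deepest library. A peak overlapped its promoter window in 7 of 22 libraries and in none at E13.5, P56, DIV7, DIV28 or with TTX. The promoter peaks thus did not follow the RNA, which was highest at E13.5. At DIV0, where *Mmp9* had no RNA count, 1 of 2 libraries had a peak (6.67). In 6 of the 7 the summit lay outside the window, 1474 to 1897 bases from the start, and within 500 bases of the start no library had a peak.

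*Calca* (chr7:114631478-114636357, minus strand) and *Calcb* (chr7:114718643-114723365, plus strand) are related genes, so that reads could be divided between them by the estimation, and counts of *Calca* include its calcitonin transcript. *Calca* had 28.6 and 6.4 normalised counts at E13.5 and 48.2, 37.1 and 107.3 at P4, and *Calcb* had 15.7 and 0.4 and then 47.1, 21.8 and 66.1. All P4 libraries exceeded the E13.5 libraries for both genes. *Calca* rose by 2.18 ± 0.53 on the log2 scale (adjusted p = 0.0014), and the *Calcb* change of 2.97 ± 0.74 (adjusted p = 0.0021) was not called.

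The *Calca* call was lost without E13.5 replicate 2 (1.31, adjusted p = 0.045) and without P4 replicate 3 (1.60, adjusted p = 0.011). *Calcb* was called without E13.5 replicate 1 (6.49, adjusted p = 1.9e-05) or P4 replicate 2 (3.30, adjusted p = 0.0013). In E13.5 replicate 2 all 10 marker genes were below their level in E13.5 replicate 1. *Calcb* had no count in the 3 E10.5 libraries and was at least 7.15-fold higher at E13.5.

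By mean normalised count both peptide genes were highest in vivo at 2yr, and by mean TPM they were highest at P13, where *Calca* was at 26.6 TPM against 23.2 at 2yr and *Calcb* at 13.2 against 10.03. *Calca* had 60.5, 34.8 and 59.4 normalised counts at P56 and 143.9 and 86.4 at 2yr, and *Calcb* had 28.9, 33.5 and 26.4 and then 99.5 and 61.9. The 2yr libraries were above the P56 libraries for both genes. The log2 changes of 1.20 ± 0.45 for *Calca* (adjusted p = 0.27) and 1.48 ± 0.59 for *Calcb* (adjusted p = 0.30) were not called. A fit of the P56 and 2yr libraries alone called both, at 1.11 and 1.40.

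In culture *Calca* and *Calcb* parted. *Calca* had 120.5, 171.9 and 69.3 normalised counts at DIV28, against 60.1, 68.9 and 45.6 at P21, and its log2 change of 1.12 ± 0.48 (adjusted p = 0.057) was not called. On the TPM scale its mean was lower at DIV28 (11.7) than at P21 (13.8), so the direction depended on the scale. *Calcb* had 7.0, 2.9 and 0.7 at DIV28 and 33.6, 45.0 and 59.4 at P21, and it fell by 3.78 ± 0.75 (adjusted p = 0.00036). The *Calcb* call was lost when the library titled DIV0 replicate 3 was kept in DIV0 (-3.30, adjusted p = 0.0061). From DIV0 to DIV28 *Calca* rose by 5.44 ± 0.88 (adjusted p = 2.3e-05), from 3.9 and 1.5 normalised counts at DIV0, and with the library under its title the change was 2.46 (adjusted p = 0.037) and not called.

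Peaks at both promoters were compared with these levels. *Calca* had a promoter peak in all 22 libraries. *Calcb* had one in 1 of 2 libraries at E10.5, in both libraries of each age from E13.5 to 2yr and in both at DIV0 (fold enrichment 7.07 and 9.03), but in none of the 6 DIV7, DIV28 and TTX libraries. An intergenic region 5963 bases beyond the *Calcb* start (chr7:114724606-114725383) had peaks in both libraries of P13, P21, P56 and 2yr, in none at E10.5, E13.5 and DIV28, and in both TTX libraries (4.15 and 2.38).

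*Spp1* (chr5:104435118-104441050, plus strand, overlapping *Gm42793* on the same strand) rose after birth and far more in culture. Its normalised counts were 3.8, 6.2 and 0.8 at E10.5, 7.4 and 4.7 at E13.5, and 10.1, 17.5 and 19.5 at P4. They were 124.5 and 151.2 at P13, 78.3, 128.5 and 116.0 at P21, 94.9, 104.5 and 138.5 at P56, and 232.2 and 206.3 at 2yr. Every library from P13 onward exceeded every earlier one, and both 2yr libraries exceeded all others in vivo. In TPM the 2yr libraries overlapped with those of P13, where replicate 2 (16.25) was above 2yr replicate 1 (14.16).

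From E13.5 to P4 the log2 change of *Spp1* was 1.60 ± 0.47 (adjusted p = 0.0056) and was not called. From P4 to P13 it rose by 3.20 ± 0.33 (adjusted p = 2.2e-06) and from P4 to P21, which shares the P4 libraries, by 2.76 ± 0.32 (adjusted p = 3.1e-06). From P56 to 2yr the change of 1.03 ± 0.28 (adjusted p = 0.11) was not called. The same change was called at 1.00 (adjusted p = 0.026) when no genes were filtered out for low counts.

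At DIV0 *Spp1* had 1.3 and 0 normalised counts, at DIV7 176.3 and 150.5, and at DIV28 5636, 7035 and 3854. No library of one day overlapped with the next. The ratio of DIV7 to DIV0 was 228.5, with a 95% counting interval of 40.6 to 9066 because DIV0 held 1 count in all. From DIV7 to DIV28 it rose by 5.10 ± 0.47 (adjusted p = 0.00018).

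From P21 to DIV28 *Spp1* rose by 5.74 ± 0.30 on the log2 scale, or 53.5-fold (adjusted p = 3.4e-12). By mean TPM it was at 8.92 ± 1.26 at P21 (SD, n = 3) and at 256.2 ± 115.3 at DIV28 (SD, n = 3), above 99.7% of all genes. Keeping the library titled DIV0 replicate 3 in DIV0 gave a DIV0 to DIV7 change of -2.97 (adjusted p = 0.50), a DIV7 to DIV28 change of 5.28 (adjusted p = 0.31) and a DIV0 to DIV28 change of 2.34 (adjusted p = 0.19), none of them called. Microglia also make osteopontin, and the summed level of 6 microglia markers was 0.47 to 1.39 TPM at DIV28, with *C1qa* at 0. It was 3.92 to 9.70 TPM for 6 astrocyte markers and 0.03 to 5.46 TPM for 6 fibroblast and pericyte markers. For 6 neutrophil markers it was 0.53 to 12.5 TPM, with *S100a8*, *S100a9*, *Mpo* and *Elane* at 0. The part of other cells in the *Spp1* level was not tested.

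After E13.5 in vivo and after DIV0 in culture, *Spp1* gained peaks at both its promoter and a distal region. Promoter peaks were absent from the E13.5, P4 and DIV0 libraries and present in both libraries of P13 (4.09 and 2.98), P21, P56 and 2yr, in 1 of 2 at DIV7 and in both at DIV28 (8.31 and 6.12). Both E10.5 libraries also had a promoter peak, 2.43 and 3.82, with its summit upstream of the start. The 2yr peaks, at 2.42 to 3.46, were of a like height. An intergenic region 26791 bases before the start (chr5:104406786-104408327) had no peak at E10.5, E13.5 and DIV0. Its fold enrichment was 5.76 and 4.11 at P4, 6.68 and 9.35 at P13, 9.22 and 12.1 at P21, 13.7 and 11.0 at P56 and 8.29 and 8.59 at 2yr, and it was 10.2 and 6.28 at DIV28. The region was thus accessible at P4, an age at which the promoter had no peak.

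Both *Spp1* sequences are shown because peaks there were absent at E13.5 and DIV0 and present at P21 and DIV28. The promoter is the 250 bases before the RefSeq start (chr5:104434861-104435110, plus strand) and the distal window is the 300 bases around the summit (chr5:104407510-104407809, plus strand), both in GRCm38. Capitals mark a match to the AP-1 motif (TGANTCA) on either strand.
Spp1 promoter: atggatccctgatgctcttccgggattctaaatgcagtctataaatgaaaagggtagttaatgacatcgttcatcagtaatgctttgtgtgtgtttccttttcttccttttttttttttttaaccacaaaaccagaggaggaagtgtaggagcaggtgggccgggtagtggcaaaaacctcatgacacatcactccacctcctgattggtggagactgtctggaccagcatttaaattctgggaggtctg
Spp1 distal region: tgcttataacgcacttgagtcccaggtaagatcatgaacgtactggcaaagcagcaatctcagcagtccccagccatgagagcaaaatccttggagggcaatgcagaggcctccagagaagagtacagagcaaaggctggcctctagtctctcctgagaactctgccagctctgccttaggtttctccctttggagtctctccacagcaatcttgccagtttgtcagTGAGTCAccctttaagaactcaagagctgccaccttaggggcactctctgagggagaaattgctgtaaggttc
The AP-1 motif was found in 16.4% of the 140215 distal windows of 300 bases around peak summits of P21 replicate 1 and in 6.75% of all 32851 RefSeq promoters of 250 bases. The other motifs searched on both strands were CRE (TGACGTCA), NFI, MEF2, a hormone receptor element and the E-box (CANNTG). The E-box was in 83.2% of the distal windows and 66.2% of the promoters and is not capitalised. In the promoters of the 7 marker genes matched to RefSeq, the E-box was the single motif of the 6 that was found. Of all RefSeq promoters, 0.037% held the NFI motif, 0.387% the hormone receptor element, 1.55% CRE and 3.20% MEF2. With shares this low, a lack of matches in so few promoters cannot show that these motifs are missing from the marker genes in particular.

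*Thy1* (chr9:44043384-44048579, plus strand) was listed at 0 in all 3 E10.5 libraries. It had 6.5 and 2.1 normalised counts at E13.5 and 328.7, 291.5 and 331.9 at P4, and held between 313.3 and 523.7 in the later in vivo libraries. The 3 earliest groups did not overlap with one another. *Thy1* was at least 4.77-fold higher at E13.5 than at E10.5 (called, adjusted p = 0.00022) and rose by 6.55 ± 0.30 on the log2 scale from E13.5 to P4 (adjusted p = 2.2e-10). The first call was lost without E13.5 replicate 1 (adjusted p = 0.0045). From P4 to P13 the change was 0.75 ± 0.18 (adjusted p = 0.0039), below 2-fold.

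In culture *Thy1* had 0 and 1.5 normalised counts at DIV0, 151.9 and 272.9 at DIV7, and 965.2, 692.9 and 415.0 at DIV28. All DIV7 libraries exceeded the DIV0 libraries, and all DIV28 libraries exceeded those of DIV7, although in TPM DIV28 replicate 3 (21.8) was below both DIV7 libraries (35.4 and 31.4). The DIV7 to DIV0 ratio was 317.9, with a counting interval of 56.6 to 12600, and was called (adjusted p = 0.00016). With the library titled DIV0 replicate 3 kept in DIV0 the change was 0.60 (adjusted p = 0.87). From DIV7 to DIV28 the change of 1.72 ± 0.48 (adjusted p = 0.029) was not called.

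*Thy1* had the highest mean TPM of the 10 genes in each in vivo group from P4 to 2yr, at 65.9 ± 7.02 at P21 (SD, n = 3). Its promoter had a peak in all 22 ATAC libraries, including both at E10.5 (3.24 and 3.55), an age at which none of the 3 RNA libraries had a *Thy1* count. A region across the gene end, 4868 bases from the start (chr9:44048252-44049990), had no peak in the E10.5, E13.5 and DIV0 libraries. That region had a peak in both libraries of every other group, at 3.39 and 3.78 at P21 and 6.44 and 4.93 at DIV28, and its summit window held 1 AP-1 match.

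**Figure D2:**
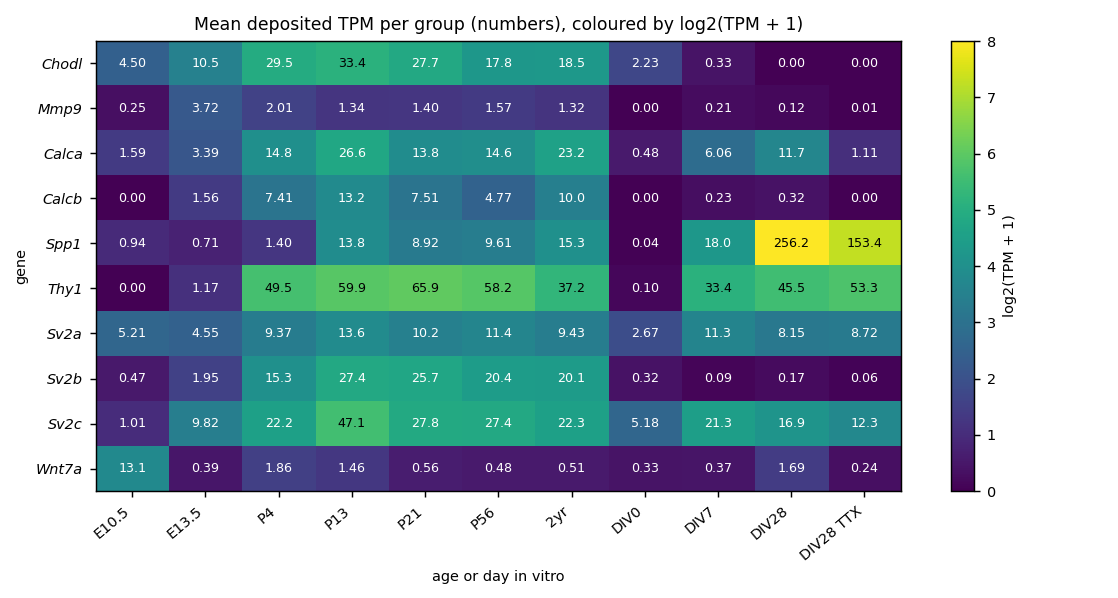
Mean deposited TPM of each marker gene (rows) per age or culture group (columns), printed in each cell and coloured by log2(TPM + 1). *Wnt7a* was the highest of the 10 genes at E10.5, *Thy1* from P4 to 2yr and *Spp1* at DIV28 with and without TTX.

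The SV2 genes, whose proteins take part in calcium-triggered transmitter release, rose together before P4 and differed in culture. *Sv2c* (chr13:95954594-96132577, minus strand) had 26.7, 10.4 and 51.1 normalised counts at E10.5, 543.9 and 264.7 at E13.5, and 1514, 1347 and 1636 at P4. *Sv2b* (chr7:75114894-75309262, minus strand) had 11.5, 2.1 and 12.2, then 83.1 and 42.9, and then 517.1, 464.0 and 636.3. *Sv2a* (chr3:96181151-96195521, plus strand) had 74.0, 40.1 and 150.3, then 135.7 and 96.5, and then 320.8, 298.0 and 361.8. At E10.5 and E13.5 the libraries of *Sv2a* overlapped, and those of *Sv2b* and *Sv2c* did not.

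From E10.5 to E13.5 *Sv2c* rose by 3.62 ± 0.37 on the log2 scale (adjusted p = 1.5e-07) and *Sv2b* by 2.68 ± 0.38 (adjusted p = 8.3e-06), and the *Sv2b* call was lost in a fit of those libraries alone (2.81, adjusted p = 0.0089). From E13.5 to P4 *Sv2b* rose by 3.29 ± 0.32 (adjusted p = 1.1e-07), *Sv2c* by 2.05 ± 0.35 (adjusted p = 5.5e-05) and *Sv2a* by 1.66 ± 0.35 (adjusted p = 0.00045). Without E13.5 replicate 2 the *Sv2a* change was 1.43 (adjusted p = 0.013) and was not called. After P4 none of the 3 was called at any step, and their libraries held 298.0 to 477.2 (*Sv2a*), 464.0 to 1131 (*Sv2b*) and 1290 to 2167 (*Sv2c*) normalised counts from P4 to 2yr. The start of *Sv2b* overlaps *1500012K07Rik* on the opposite strand, and the study's default RSEM settings do not use strand, so reads of the pair cannot be told apart there.

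*Sv2b* was nearly absent in culture. It had 13.1 and 15.3 normalised counts at DIV0, 0 and 3.8 at DIV7, and 9.3, 9.7 and 11.7 at DIV28, against 895.0, 936.4 and 834.3 at P21. From P21 to DIV28 it fell by 6.37 ± 0.34 on the log2 scale, or 82.9-fold (adjusted p = 4.3e-12). A promoter peak was found in 21 of 22 libraries, the exception being DIV28 replicate 2, and the peak of DIV28 replicate 1 was at 3.33, below those of P21 (7.26 and 7.91).

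*Sv2a* and *Sv2c* were higher at DIV28 than at DIV0. *Sv2c* had 361.9 and 244.6 normalised counts at DIV0, 825.4 and 931.1 at DIV7, and 1456, 2174 and 1197 at DIV28. *Sv2a* had 122.8 and 152.9, then 292.6 and 311.2, and then 553.8, 679.4 and 386.5. For both genes no library overlapped with those of another day on this scale, while by mean TPM both were lower at DIV28 than at DIV7 (8.15 against 11.3 for *Sv2a* and 16.9 against 21.3 for *Sv2c*). From DIV0 to DIV28 *Sv2c* rose by 2.47 ± 0.37 (adjusted p = 1.1e-05) and *Sv2a* by 2.03 ± 0.35 (adjusted p = 4.4e-05), while *Sv2b* changed by -0.41 ± 0.50 (adjusted p = 0.51). With the library titled DIV0 replicate 3 in DIV0, neither was called (1.64, adjusted p = 0.022, and 1.52, adjusted p = 0.012).

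Relative to P21, *Sv2c* at DIV28 differed by -0.19 ± 0.30 on the log2 scale (adjusted p = 0.61) and *Sv2a* by 0.58 ± 0.28 (adjusted p = 0.086). On the TPM scale *Sv2a* was slightly lower at DIV28 (8.15 ± 3.38, SD, n = 3) than at P21 (10.2 ± 1.72, SD, n = 3), as was seen for *Calca*. The same held for *Thy1*, with 470.0 normalised counts at P21 and 691.0 at DIV28 but 65.9 and 45.5 TPM.

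A region 33836 bases before the *Sv2c* start (chr13:96166413-96167473, intergenic) had a peak in both libraries of P13, P21 (5.54 and 6.69), P56 and 2yr, in both at DIV28 (9.06 and 5.001) and in both with TTX (7.11 and 6.24), and in no other library. It was 1 of 9 regions near *Sv2c* with peaks in all P21, P56 and 2yr libraries and none at E10.5 and E13.5. The window around its summit (chr13:96166708-96167007, minus strand, GRCm38) is shown with that pattern in view, with an AP-1 match and a MEF2 match in capitals.
Sv2c distal region: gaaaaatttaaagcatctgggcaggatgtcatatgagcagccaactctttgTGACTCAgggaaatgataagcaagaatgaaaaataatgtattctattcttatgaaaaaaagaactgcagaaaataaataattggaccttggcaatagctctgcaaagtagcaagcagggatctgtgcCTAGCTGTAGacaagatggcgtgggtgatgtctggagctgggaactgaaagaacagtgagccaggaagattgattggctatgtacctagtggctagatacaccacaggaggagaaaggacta
The MEF2 motif was found in 5.25% of the P21 replicate 1 distal windows. A match is a description of these letters and was not tested as a site. The strongest regions of *Mmp9*, *Calcb* and *Sv2b* with the same pattern at P21, P56, 2yr and the embryonic ages held no AP-1 match in their summit windows.

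*Wnt7a* (chr6:91363981-91411363, minus strand) took its own course. It had 113.7, 140.3 and 93.1 normalised counts at E10.5, 10.2 and 6.4 at E13.5, and 44.9, 42.6 and 61.1 at P4. It fell by 4.01 ± 0.46 on the log2 scale (adjusted p = 7e-07) and then rose by 2.78 ± 0.47 (adjusted p = 5.5e-05), and neither step had overlapping libraries. Without E13.5 replicate 2 the rise was 2.43 (adjusted p = 0.0035) and was not called.

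After P4 *Wnt7a* was lower again, at 24.7 and 46.4 normalised counts at P13, 9.8, 14.1 and 26.2 at P21 and 9.2 to 23.4 later. All P21 libraries were below the P4 libraries. The P4 to P21 change of -1.55 ± 0.41 (adjusted p = 0.0059) was not called, and without P21 replicate 3 it was -2.04 (adjusted p = 0.0034) and was called. DESeq2 called it as well, at -1.54.

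In culture *Wnt7a* had 15.7 and 13.8 normalised counts at DIV0, 7.5 and 8.9 at DIV7, and 83.4, 125.7 and 53.2 at DIV28. All 3 DIV28 libraries were above those of the earlier days and above all P21 libraries. In TPM the DIV28 libraries (1.68, 2.65 and 0.75) overlapped with those of P21 (0.39, 0.47 and 0.82). By edgeR it rose by 3.41 ± 0.60 on the log2 scale from DIV7 to DIV28 (adjusted p = 0.0034) and by 2.45 ± 0.42 from P21 to DIV28 (adjusted p = 4.6e-05). The DIV7 to DIV28 call was lost without DIV7 replicate 1 (adjusted p = 0.041), without DIV7 replicate 2 (adjusted p = 0.044) and with the library titled DIV0 replicate 3 in DIV0 (adjusted p = 0.10). The *Wnt7a* promoter had a peak in all 22 libraries.

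Counted over the 10 genes, 5 had a promoter peak in every ATAC library (*Chodl*, *Calca*, *Sv2c*, *Wnt7a* and *Thy1*), where 53.4% of 21938 protein-coding genes did. A peak counted when it overlapped the window, and its summit lay outside the window in all 15 *Calcb* libraries with a peak, in 16 of 22 for *Sv2c* and in 1 of 21 for *Sv2a*. Peaks were called separately in each library and the reads behind them are unknown, so presence and fold enrichment are given without intervals. The lists held 80386 to 224328 peaks per library. They held 80386 and 97002 at E10.5, 115517 and 96168 at P4, 94520 and 80818 at DIV0 and 224328 and 152667 at DIV28. How far these totals set the presence or absence of a peak was not tested.

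**Figure D3:**
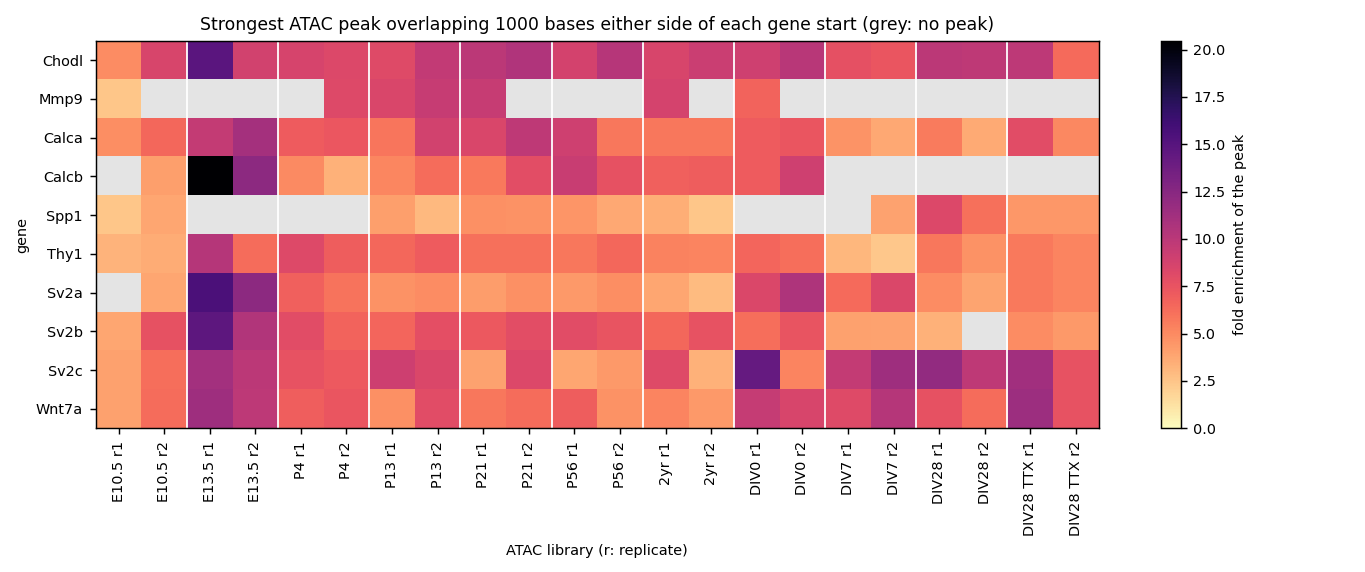
Fold enrichment of the strongest ATAC peak overlapping 1000 bases either side of each gene start (rows) in each of 22 libraries (columns, 2 per group), with grey where no peak was called. The *Chodl* row is filled throughout, the *Spp1* row is empty at E13.5, P4 and DIV0, and the *Calcb* row is empty from DIV7 to TTX.

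Within 50000 bases of the 10 genes and over 2000 bases from their starts, 407 regions had a peak in at least 1 library, 96 of them near *Sv2b* and 88 near *Sv2c*, the longest genes of the list. In 22 of these regions all P21, P56 and 2yr libraries had a peak and no E10.5 or E13.5 library had one, and 10 of the 22 also had a peak in both DIV28 libraries while 5 had it in neither. *Sv2c* held 9 of the 22, *Spp1*, *Mmp9* and *Sv2b* held 3 each, *Calcb* and *Thy1* held 2 each, and *Chodl*, *Calca*, *Sv2a* and *Wnt7a* held none. In 26 regions both DIV28 libraries had a peak and no in vivo library did. Such a region lies near a gene and was not shown to act on it.

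**Figure D4:**
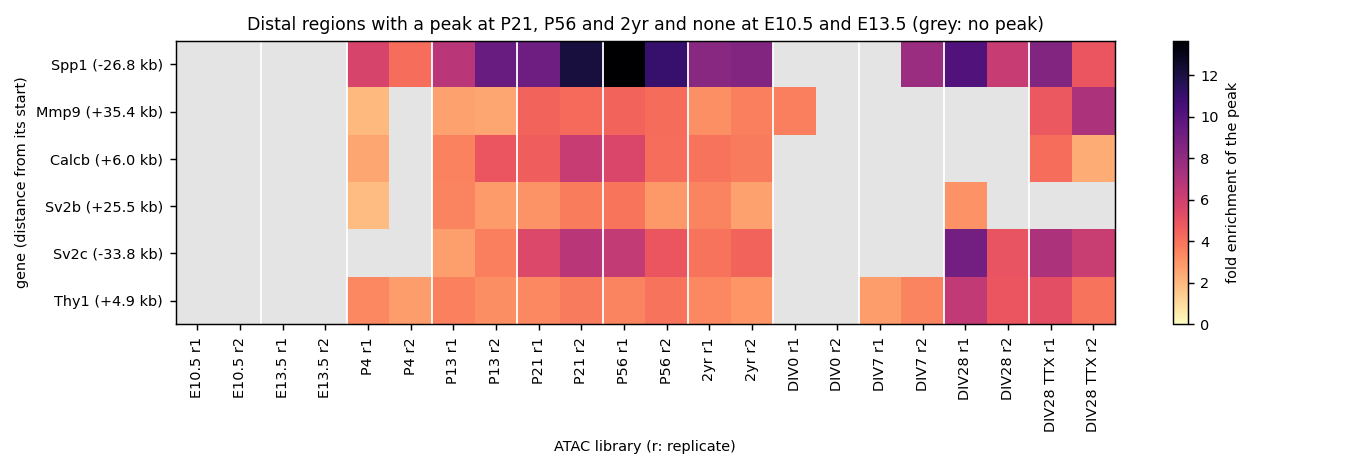
Fold enrichment of the ATAC peak in each library (columns) at the strongest distal region of 6 marker genes (rows, with the distance from the gene start in kb) that had peaks at P21, P56 and 2yr and none at E10.5 and E13.5, with grey where no peak was called. The *Spp1* region is accessible from P4 and at DIV28, and the *Calcb* region has no peak at DIV28.

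At DIV28 the list held genes called above P21, genes called below it and genes not called. From P21 to DIV28, 6 of 10 were called, where 26.3% of all 15521 tested genes were called. *Spp1* and *Wnt7a* rose, where 13.3% of all genes did, and *Chodl*, *Mmp9*, *Calcb* and *Sv2b* fell, where 13.1% of all genes did. *Calca*, *Thy1*, *Sv2a* and *Sv2c* were not called, although every *Calca* library at DIV28 was above those at P21 by normalised count. The median log2 difference of the 10 genes was 0.19 and that of all genes 0.03.

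The change over time in culture was also set against that in vivo, as the interaction of DIV0 to DIV28 with E13.5 to P21. For it 41.7% of all genes were called, 24.2% with a more positive and 17.5% with a more negative change in culture than in vivo. Among the 10 genes, 7 were called from E13.5 to P21, where 52.2% of all genes were, and 7 from DIV0 to DIV28, where 28.8% of all genes were and 17.1% rose. Without E13.5 replicate 2 the E13.5 to P21 count was 4, and with the library titled DIV0 replicate 3 in DIV0 the DIV0 to DIV28 count was 1. The interaction was called for 4 of them. *Spp1* rose more in culture, with a difference of 8.59 ± 0.95 on the log2 scale (adjusted p = 1.1e-07), and the *Sv2b* difference was -4.24 ± 0.63 (adjusted p = 6.1e-06). *Chodl* and *Mmp9* were called as well, with fitted differences that rest on a group without counts and therefore depend on the prior count. With the library titled DIV0 replicate 3 in DIV0, the *Spp1* difference was -1.76 (adjusted p = 0.52), and the *Mmp9* difference was 3.36 (adjusted p = 0.0052), neither called. The *Mmp9* call was also lost without DIV28 replicate 2 (adjusted p = 0.0034), DIV0 replicate 1 (adjusted p = 0.0046) or DIV0 replicate 2 (adjusted p = 0.0031).

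With TTX *Wnt7a* was the single marker gene called. Of the 7 marker genes tested in the culture fit, 1 was called, where 0.683% of all 12890 tested genes were called and 0.403% fell. *Wnt7a* had 83.4, 125.7 and 53.2 normalised counts at DIV28 and 16.7, 8.1 and 15.1 with TTX. All TTX libraries were below all untreated ones. It fell by 2.78 ± 0.47 on the log2 scale (adjusted p = 0.043), or 6.87-fold. The call held in all 6 fits with a library left out. It also held in a fit of those libraries alone and with the library titled DIV0 replicate 3 in DIV0. In both of these, and without DIV28 replicate 1, DIV28 replicate 2 or any TTX replicate, its adjusted p was not below 0.05. With the replicate number as a block across all cultures, DIV0 and DIV7 included, 172 genes were called in place of 88. *Wnt7a* was again the single marker gene among them (-2.75, adjusted p = 0.020).

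*Calca*, *Spp1* and *Sv2c* were also lower in every TTX library than in every untreated library by normalised count but were not called, and in TPM the groups overlapped for *Spp1* and *Sv2c*. *Calca* had 33.5, 1.1 and 3.8 normalised counts with TTX, and its log2 change was -3.39 ± 0.95 (adjusted p = 0.24). DESeq2 called it (-3.29, adjusted p = 0.025), and so did the fit without TTX replicate 1 (-5.83, adjusted p = 0.057). *Spp1* had 3830, 3481 and 1816 with TTX and a change of -0.88 ± 0.33 (adjusted p = 0.47), and *Sv2c* had 1109, 1051 and 561.6 and a change of -0.84 ± 0.31 (adjusted p = 0.46). Both changes were thus under 2-fold, and with the replicate number as that block the *Spp1* change was -0.91 ± 0.20 (adjusted p = 0.060).

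*Sv2a*, with 621.0, 621.0 and 472.0 normalised counts under TTX, and *Thy1*, with 1256, 701.9 and 502.3, overlapped with the untreated libraries. *Calcb*, with no count under TTX, was at least 3.41-fold lower than at DIV28, where it had 16 counts in all. *Chodl* had no count in either group. The median log2 change of the 7 tested genes was -0.84, with *Chodl* counted as 0, and that of all genes was 0.01. Summed levels of 6 astrocyte markers were 3.92 to 9.70 TPM without and 3.51 to 12.7 TPM with TTX, with all 6 detected in both groups. Of 6 fibroblast and pericyte markers the sums were 0.03 to 5.46 and 0.23 to 22.7 TPM, with *Rgs5* at 0 under TTX, and their part in the changes was not tested.

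**Figure D5:**
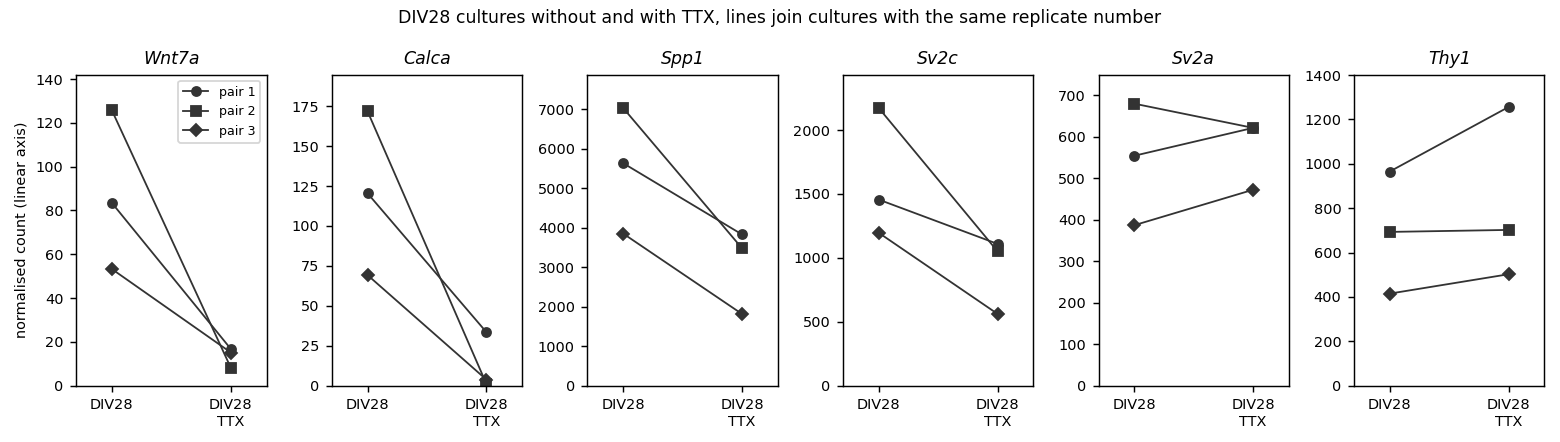
Normalised counts (linear axis from 0) of 6 marker genes in DIV28 cultures without and with TTX, with lines joining cultures of the same replicate number (3 pairs). *Wnt7a*, *Calca*, *Spp1* and *Sv2c* were lower with TTX in all 3 pairs.

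Peaks near the genes gave few presence or absence differences with TTX. Of the 407 distal regions, 7 had a peak in both DIV28 libraries and in no TTX library, and 3 had the opposite pattern. Near *Spp1*, the region at chr5:104441652-104443074, beyond the gene end, had peaks of 2.82 and 3.32 at DIV28 and in no other library. For *Sv2c*, chr13:95922742-95923041, 209536 bases from the start and beyond the gene end, had peaks of 11.8 and 3.21 at DIV28 and in no other library. Its summit window (chr13:95922700-95922999, minus strand) is printed because no peak was called there with TTX, a difference that was not tested. The capitals are an AP-1 match. The summit windows picked by the same rule near *Spp1*, *Mmp9* and *Sv2b* held no AP-1 match.
Sv2c region at DIV28: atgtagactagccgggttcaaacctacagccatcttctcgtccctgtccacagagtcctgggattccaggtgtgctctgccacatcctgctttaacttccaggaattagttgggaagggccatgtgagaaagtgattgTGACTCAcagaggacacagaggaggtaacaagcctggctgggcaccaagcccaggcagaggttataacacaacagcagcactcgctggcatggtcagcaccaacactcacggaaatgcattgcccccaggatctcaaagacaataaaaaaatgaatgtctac
The promoter peaks of *Spp1* were 8.31 and 6.12 without and 4.42 and 4.47 with TTX, and those of *Wnt7a*, whose RNA fell, were 7.66 and 6.25 without and 11.5 and 7.53 with TTX.

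Genes that act with the markers were counted from lists chosen by their known roles. From E13.5 to P4, where 23.8% of all genes rose and 19.0% fell, 9 of 10 partners of SV2 in release rose and none fell. *Syn2* (synapsin 2) rose by 3.12 and *Syt2* (a calcium sensor of release) by 2.49 on the log2 scale. The list median was 1.93. Of 10 other gamma markers 9 rose (median 2.64), with *Htr1f*, a serotonin receptor, at 4.50, and both other alpha markers rose, *Vipr2*, a VIP receptor, at 2.94 and *Rbfox3*, the NeuN antigen, at 1.63. Gamma markers and both other alpha markers thus rose over the step in which *Wnt7a* rose. From P21 to DIV28, where *Wnt7a* rose as well, 5 of 10 gamma markers fell and 2 rose. Of 8 osteopontin receptor genes 3 fell and none rose (median -0.71), among them *Itgb3* at -2.22, and of 3 CGRP receptor genes *Ramp1* rose by 3.45 while *Calcrl*, which vessels also express, fell by 2.17. Markers of other cells moved over the same step. All 5 oligodendrocyte markers rose (median 4.45, summed level 6.92 to 10.04 TPM at E13.5, with *Mog* at 0, and 87.1 to 111.8 TPM at P4). Of 5 interneuron markers 4 rose (median 2.37, 4.73 to 6.76 and then 15.7 to 31.4 TPM), of 6 astrocyte markers 3 rose and 1 fell (54.2 to 59.2 TPM, with *Gfap* at 0, and then 64.9 to 146.7 TPM), and of 5 endothelial markers 4 fell. Their part in the list changes was not tested.

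From P4 to P21, where 5.85% of all genes rose and 11.2% fell, *Vipr2* rose by 2.63, 1 of 10 gamma markers rose and 1 fell, and 1 of 10 SV2 partners rose and 1 fell. Of 8 tested WNT7A pathway genes 5 fell (median -1.76), among them *Adgra2*, a coreceptor for WNT7A, at -3.22, and of 5 tested MMP9 inhibitors and related proteases 3 fell (median -2.51), among them *Mmp14*, a membrane-bound protease, at -4.33. Over the same step all 5 endothelial markers fell (median -7.20, to 1.28 to 2.06 TPM at P21), 5 of 6 astrocyte markers fell (to 36.3 to 39.3 TPM) and 2 of 6 fibroblast and pericyte markers fell (to 1.59 to 7.45 TPM), while 2 of 5 oligodendrocyte markers rose (to 199.5 to 245.3 TPM). Their part was not tested.

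From P21 to DIV28, where 13.3% of all genes rose and 13.1% fell, both other alpha markers fell (*Vipr2* at -6.33 and *Rbfox3* at -1.95), 5 of 10 gamma markers fell and 2 rose (median -1.72), and 2 of 4 fast and slow markers fell, *Dlk1* at -4.62 and *Kcnq5* at -2.20. Of 8 osteopontin receptor genes 2 rose and 1 fell (median 0.81), with *Cd44* at 6.03. Of 3 CGRP receptor genes 2 fell, among them *Ramp1*, which had no count at DIV28. All 5 oligodendrocyte markers, 3 of 6 astrocyte markers and 3 of 5 endothelial markers fell as well, with oligodendrocyte sums of 0.73 to 1.10 TPM at DIV28 and *Mog* and *Mag* at 0. With TTX, where 0.279% of all genes rose, 1 of 6 tested gamma markers (*Plch1*, 1.32) and 1 of 10 SV2 partners (*Stx1a*, 1.18) rose.

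Other genes with a like pattern over the 28 libraries were sought among 14382 genes by the Pearson correlation of log2(normalised count + 1). The libraries share their groups, so these values are descriptions. The highest were *Ankrd34c* (0.98) for *Thy1*, *Tmtc1* (0.98) for *Sv2c*, *Adarb2* (0.98) for *Chodl*, *Napb* (0.97) for *Sv2a*, *Azin2* (0.96) for *Spp1* and *Trpc5* (0.96) for *Sv2b*. They were *Gm11639* (0.95) for *Calcb*, *Fyco1* (0.93) for *Mmp9* and *Gng4* (0.92) for *Calca*, and the lowest was *Ildr2* (0.76) for *Wnt7a*. Among the 10 genes themselves *Sv2a* and *Thy1* were closest (0.93), followed by *Calcb* and *Sv2b* (0.92), and *Spp1* and *Chodl* were farthest apart (-0.57).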

How the data were processed

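The authors trimmed reads with Trim Galore, aligned them to mm10 with STAR 2.5.2b and estimated expected counts per gene with RSEM 1.3.0. The deposited tables hold expected counts and TPM per library. For ATAC-seq the authors aligned reads with BWA, removed duplicates with SAMtools and called peaks per library with MACS2 2.2.7.1. The deposited peak lists hold fold enrichment (a ratio to the local background), −log10 p and −log10 q. Where several summits shared an interval, the strongest was used.

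Expected counts were rounded, and a gene was tested if all libraries of 1 or more groups reached 5 CPM. They were scaled with TMM factors and fitted with edgeR 4.0.16 (R 4.3.3) in 3 models: all in vivo libraries, all cultures, and all libraries without TTX for P21 against DIV28 and for the interaction. Alternatives were DESeq2 1.42.0, other filters, factors, limits and blocks, and fits with libraries left out. The test was tested on simulated data. Normalised counts used size factors from medians of ratios, and library totals of 2704682 to 21823500 counts limit the precision of low genes. Peaks were handled with Python 3.11.15, and gene positions came from GENCODE.

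The markers and lists were chosen with earlier results of these data known. All 10 genes are named, with up to 2 called genes per list and comparison, and 1 or 2 regions per gene. The study pairs its DIV28 and TTX cultures, and pairs with the same number deviated together from their group means (r = 0.503, 0.425 and 0.601), while the main test used no block. Promoters came from RefSeq (GRCm38.p6), which matched 7 of the 10 genes. *Mmp9*, *Calcb* and *Thy1* were not matched.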

Additional observations from a re-analysis of the deposited data

Results flagged for a closer look

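The difference between the change over 28 days in culture (DIV0 to DIV28) and the change in vivo (E13.5 to P21) passed the limits in edgeR's quasi-likelihood test for 4 of the 10 marker genes, where 41.7% of all genes passed. For *Spp1* the difference was 8.59 on the log2 scale, a larger rise in culture, with 1.3 and 0 normalised counts at DIV0. For *Sv2b* it was -4.24, from a rise of 3.84 in vivo and a change of -0.41 in culture. For *Chodl* the fitted difference was -11.02 and for *Mmp9* it was 6.90, and both rest on a culture group without counts, so that their size depends on the prior count and is no bound. From E13.5 to P21 *Chodl* rose by 1.88 and *Mmp9* fell by 1.68.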

How the results depend on the processing

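Of the recomputed counts of called marker genes, 136 stayed within 1.5 times the value reported and 32 did not, and of the recomputed log2 changes 619 kept direction and call, 43 lost the call, 32 gained it and 2 reversed. From E10.5 to E13.5, 5 genes were called, against 8 with DESeq2, without the filter or at an adjusted p under 0.05, 3 with only the compared libraries, and 4 to 8 with a replicate left out. The E13.5 to P4 count of 8 was 5 with only the compared libraries and 4 to 8 with a replicate left out. From P56 to 2yr 3 were called without the filter and 2 with only the compared libraries. From P4 to P21 2 were called with DESeq2, without the filter, with only the compared libraries or by adjusted p, and 1 to 2 with a replicate left out. From DIV0 to DIV7 4 were called with DESeq2 or the replicate block and 5 without the filter, with only the compared libraries or by adjusted p. From DIV7 to DIV28 5 were called without the filter, 4 with the replicate block or by adjusted p, and 1 to 2 with a replicate left out. With TTX 2 were called with DESeq2 or without the filter, and 1 to 2 with a replicate left out. The E13.5 to P21 count of 7 was 4 to 8 with a replicate left out. With the library titled DIV0 replicate 3 kept in DIV0, the counts were 0 from DIV0 to DIV7, 0 from DIV7 to DIV28, 1 from DIV0 to DIV28 and 2 for the interaction, and *Spp1* reversed to -2.97 from DIV0 to DIV7 and to -1.76 in the interaction. The causes were not tested. Within 20000 bases of the genes 254 distal regions were counted in place of 407, and at a q of at most 0.01 4 promoters had a peak in every library.

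Outside TTX the same replicate number did not pair the libraries, whose deviations correlated between -0.129 and 0.138. The replicate block ended the calls of *Mmp9* (-1.28) and *Calca* (1.99) from E13.5 to P4 and of *Mmp9* from E13.5 to P21 (-1.57), and added *Chodl* from E10.5 to E13.5 (1.94), *Sv2a* (1.14) and *Sv2c* (1.54) from DIV0 to DIV7, and *Thy1* (1.93) and *Sv2a* (1.01) from DIV7 to DIV28. The block changed no marker call with TTX. With median-of-ratios factors the median of all genes moved from 0.13 to 0.24 from E10.5 to E13.5 and from 0.12 to 0.01 from E13.5 to P4, and of the genes called from P13 to P21 323 of 1043 rose in place of 226 of 1097, and from P56 to 2yr 59 of 94 in place of 75 of 103. Genes called over the whole table moved by more than 1.5 times in these cases. From E10.5 to E13.5 they numbered 6621, against 3717 with only the compared libraries, and from P4 to P13 2006, against 1287 without P13 replicate 1. From P13 to P21 they numbered 1097, against 1701 without the filter, 1659 by adjusted p and 705 without P13 replicate 2, and from P21 to P56 26, against 115 without the filter and 8 by adjusted p. From P56 to 2yr they numbered 103, against 281 without the filter, 191 with only the compared libraries, 60 by adjusted p, 65 without P56 replicate 2, 67 without 2yr replicate 1 and 59 without 2yr replicate 2. From DIV0 to DIV7 they numbered 1440, against 2657 without the filter, 2488 with only the compared libraries, 2784 by adjusted p, 168 with the library in DIV0 and 725 to 916 with a replicate left out. From DIV7 to DIV28 they numbered 993, against 1627 with DESeq2, 2232 without the filter, 1519 with the block, 2031 by adjusted p, 118 with the library in DIV0, 488 without DIV7 replicate 1 and 403 without DIV7 replicate 2. With TTX they numbered 88, against 187 with DESeq2, 365 without the filter, 172 with the block, 27 by adjusted p, 12 with the library in DIV0 and 56 without DIV28 replicate 2. From DIV0 to DIV28 they numbered 4474, against 2675 with only the compared libraries and 1229 with the library in DIV0. Genes near 0 in culture are limited by depth.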
